A study of Mus musculus with 9 samples.

Results

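The genes described here encode cytochrome P450 enzymes, which oxidise drugs, fatty acids, sterols and other small lipophilic molecules, and the enzymes that conjugate such molecules or their oxidised products: the UDP-glucuronosyltransferases, the sulfotransferases and the glutathione transferases. They were chosen by symbol alone, as every mouse gene whose symbol begins with Cyp and a digit, Ugt1, Ugt2, Sult and a digit, Gsta, Gstm, Gsto, Gstp, Gstt, Gstk or Mgst. With 1 probe set per gene, the one with the highest mean over the 9 arrays, 116 of the 18194 genes on the array met the rule. The rule was set with earlier results of these data known. The study measured colonic mucosa on Affymetrix expression arrays, with 3 arrays for each of 3 genotypes, under a title on progastrin and the proliferation of cancer cells. All groups were male C57BL/6 mice aged 6 weeks. The groups were wild type (WT), mice that lack the gastrin gene (Gas-/-, called GasKO) and mice that carry a transgene of human gastrin (called hGAS). The labels name no promoter or expressing cell type for the transgene, and no treatment. Nothing in them says that the 3 arrays of a group came from separate mice, so the p-values below measure the spread between these samples, which may be technical.

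In oxidation, a P450 enzyme draws electrons from NADPH through P450 reductase and inserts oxygen into its substrate. In conjugation, a transferase then adds glucuronic acid, sulfate or glutathione from an activated cofactor, which makes the product more soluble in water and easier for efflux pumps to export. The liver carries out most of this metabolism, and the lining of the intestine holds its own set of these enzymes for compounds that arrive from the lumen. Nuclear receptors and other ligand-activated factors, among them PXR (Nr1i2), CAR (Nr1i3), the aryl hydrocarbon receptor (Ahr) and NRF2 (Nfe2l2), are known regulators of many of these genes.

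Values are log2 signals as deposited, so a difference of 1 is a 2-fold change, and a value belongs to its probe set: levels of different genes were not set against each other. A gene was tested when at least 3 of the 9 arrays read 4 or more, which kept 11274 genes and 54 of the 116 members. Of these 54 members, 53 read 4 or more on all 9 arrays. The exception was Ugt2b5, which read 3.38 on 1 WT array. A member was called when its adjusted p in limma, with Benjamini-Hochberg adjustment over all genes tested, was under 0.05. The 3 comparisons share arrays and are not independent of each other. In bulk mucosa, fewer cells of a type and less RNA per cell cannot be told apart.

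The arrays of each group correlated at 0.99 to 0.996 over all genes tested, and the array medians lay between 4.13 and 4.16. WT replicate 3 stood apart on the second principal component (18.1% of the variance), at 24.95 against 6.95 and 7.72 for the other WT arrays. Gast, the gastrin gene, read near background in every group (mean ± SD of 3 arrays 1.96 ± 0.02 in WT, 2.08 ± 0.08 in GasKO, 1.95 ± 0.01 in hGAS), so the array checked neither the deletion nor the transgene. Of 11 epithelial markers, all 11 were measured, and their mean level relative to the 9 arrays was -0.10 to -0.02 in WT, 0.01 to 0.06 in GasKO and -0.03 to 0.06 in hGAS, with 2 markers higher in GasKO than in WT and 2 lower in hGAS than in GasKO. Over all genes tested, 6.63% were called higher in GasKO than in WT and 8.51% lower in hGAS than in GasKO.

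The members differed most often between hGAS and GasKO mucosa. There, 18 of the 54 tested members were called (33.3%), 14 higher and 4 lower in hGAS, beside 16.6% of all genes tested (8.05% higher and 8.51% lower). In GasKO against WT, 7 members were called (13.0%), 3 higher and 4 lower, beside 12.1% of all genes (6.63% higher and 5.48% lower). In hGAS against WT, 3 members were called (5.56%), all 3 higher, beside 1.16% of all genes (0.639% higher and 0.523% lower). An F test for any difference among the genotypes called 18 members, beside 15.8% of all genes. The median difference over the tested members was 0.03 for GasKO against WT, 0.00 for hGAS against WT and -0.01 for hGAS against GasKO. The median size of the difference was 0.16, 0.15 and 0.23 in the same order, beside 0.11, 0.08 and 0.12 over all genes tested. The groups did not overlap for 19 members in GasKO against WT (31.1% of all genes), for 17 members in hGAS against WT (17.7% of all genes) and for 29 members in hGAS against GasKO (36.7% of all genes). In each of the 28 called differences the arrays of the groups did not overlap. With 3 arrays a group a call itself favours such separation, and the same count was not made over all called genes. It therefore adds no support to the calls. Single arrays decided part of the largest count: 9 members were called between hGAS and GasKO without hGAS replicate 1, 10 without GasKO replicate 3 and 11 without GasKO replicate 1, where 11.1%, 10.8% and 10.9% of all genes were called.

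**Figure D1:**
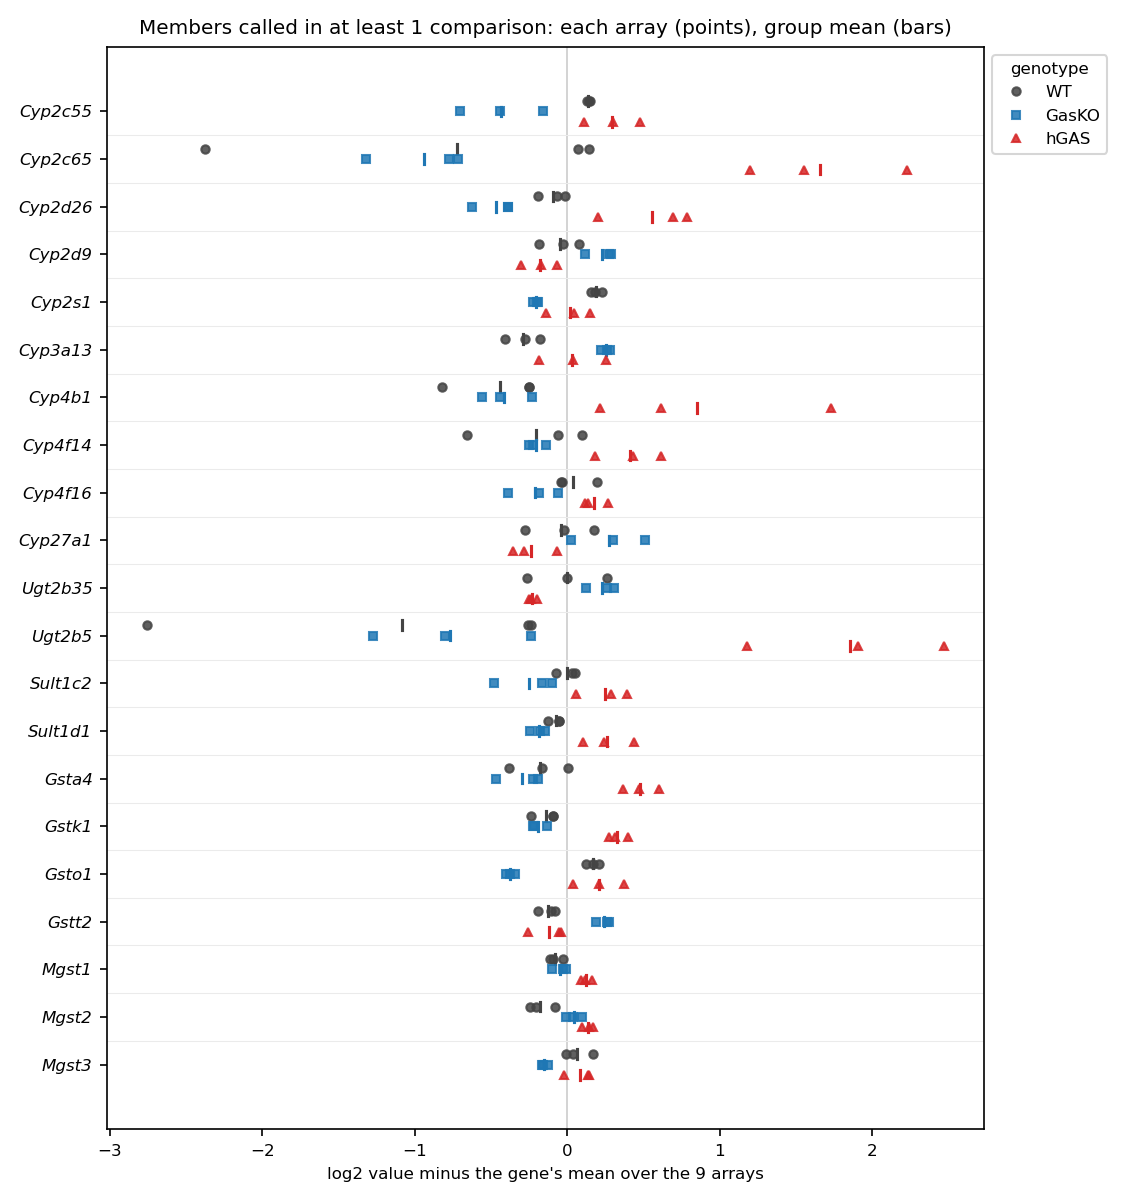
The 21 members called in at least 1 pairwise comparison, by array. Each dot is 1 array of WT, GasKO or hGAS mucosa, as its log2 value less that gene's own average across arrays, and bars are group means. The widest spreads are those of Cyp2c65 and Ugt2b5, whose hGAS arrays lie above all other arrays and whose lowest dot is WT replicate 3.

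**Figure D2:**
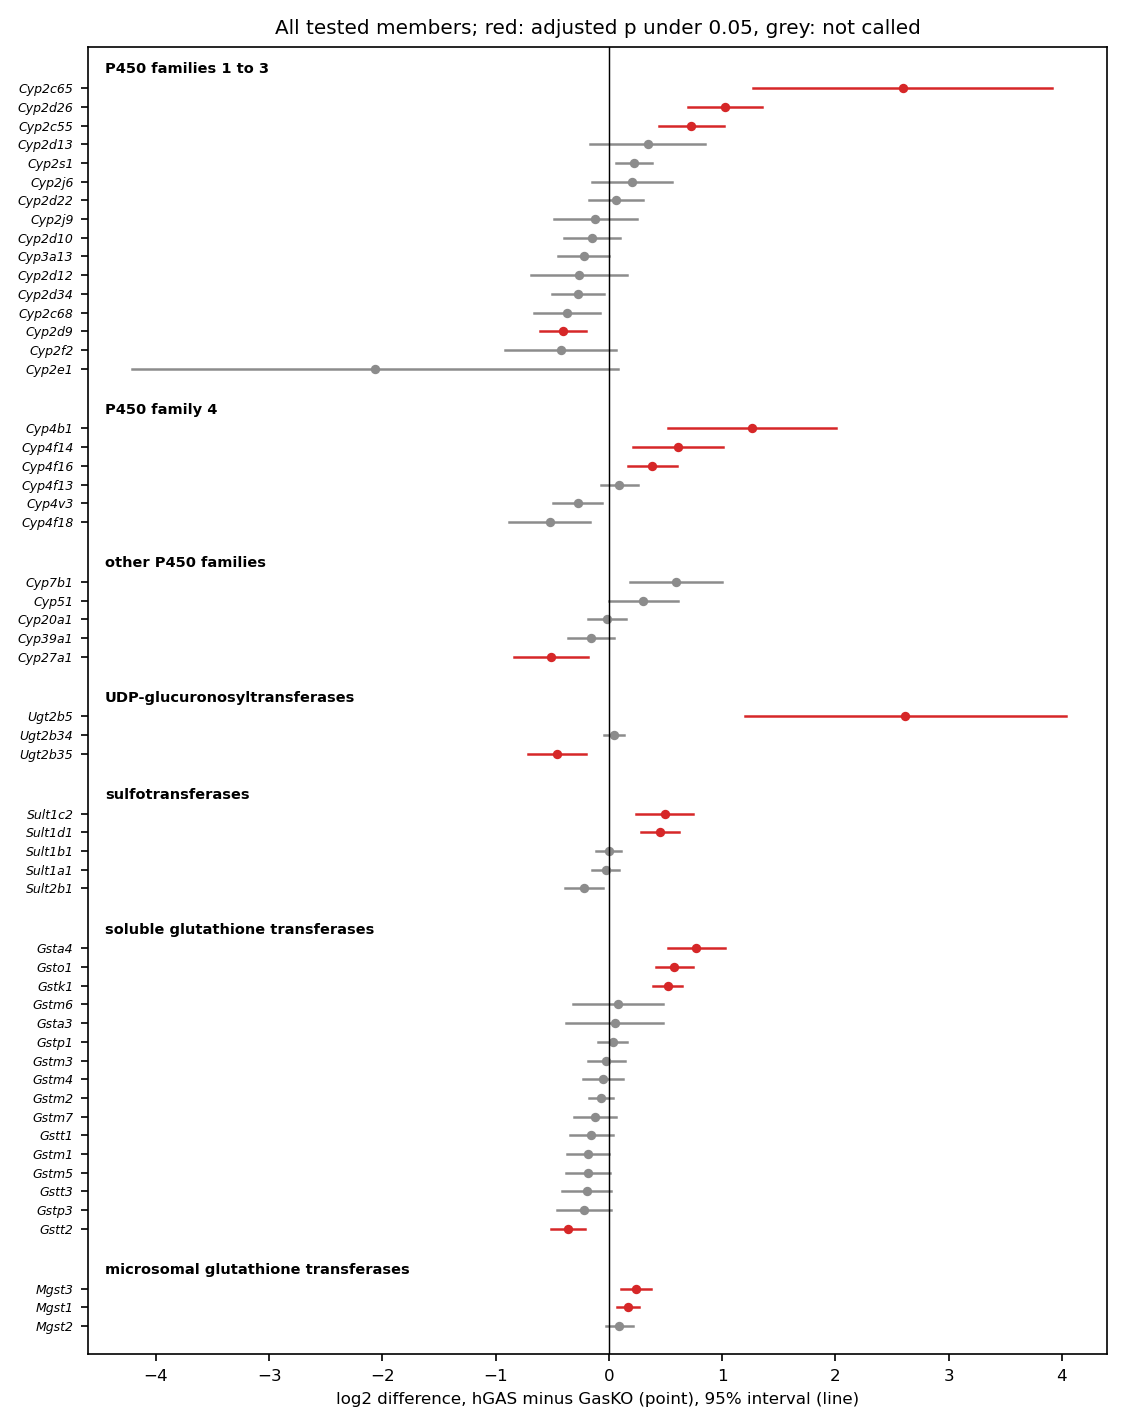
Log2 difference of hGAS minus GasKO for all 54 tested members, grouped by family. Points are limma estimates and lines are 95% intervals that are not adjusted for the number of genes. Red marks the 18 members with an adjusted p under 0.05, of which 14 lie to the right of 0 and 4 to the left.

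The promoters of 4 of the members are shown because Cyp2c65 and Ugt2b5 had the largest called differences, Cyp2c55 is the neighbour of Cyp2c65 that was also called, and Gstk1 had the smallest adjusted p of any member between hGAS and GasKO. Each sequence runs 5′ to 3′ on the gene's strand from 250 bases before to 50 bases after the RefSeq transcription start, with coordinates of build GRCm38.p6. Both strands were searched for 4 words of factors that regulate these enzymes: GCGTG, the core bound by the aryl hydrocarbon receptor with its partner; TGACNNNGC, the antioxidant response element of NRF2; CAAAGTCCA, a word preferred by HNF4; and AGGTCA, the element shared by many nuclear receptors. Capitals mark the matches, and none of the matches shown overlap.
Cyp2c65, chr19:39060756-39061055, plus strand: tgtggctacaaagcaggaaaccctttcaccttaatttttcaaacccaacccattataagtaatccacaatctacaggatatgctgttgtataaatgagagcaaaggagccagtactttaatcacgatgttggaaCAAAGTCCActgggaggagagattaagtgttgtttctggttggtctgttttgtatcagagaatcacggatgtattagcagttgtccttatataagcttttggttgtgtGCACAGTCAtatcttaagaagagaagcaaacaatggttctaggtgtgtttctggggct
Cyp2c55, chr19:39006769-39007068, plus strand: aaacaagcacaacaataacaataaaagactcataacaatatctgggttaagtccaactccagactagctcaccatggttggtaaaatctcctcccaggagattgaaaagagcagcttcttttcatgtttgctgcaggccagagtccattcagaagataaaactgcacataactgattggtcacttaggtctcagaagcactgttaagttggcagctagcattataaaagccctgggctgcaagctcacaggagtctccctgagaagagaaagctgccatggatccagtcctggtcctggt
Ugt2b5, chr5:87140291-87140590, minus strand: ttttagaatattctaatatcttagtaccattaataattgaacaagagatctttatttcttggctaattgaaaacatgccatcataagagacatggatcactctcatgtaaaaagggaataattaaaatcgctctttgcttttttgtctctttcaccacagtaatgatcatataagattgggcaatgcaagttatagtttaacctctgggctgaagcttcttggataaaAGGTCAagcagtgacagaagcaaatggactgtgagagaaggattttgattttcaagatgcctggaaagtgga
Gstk1, chr6:42245685-42245984, plus strand: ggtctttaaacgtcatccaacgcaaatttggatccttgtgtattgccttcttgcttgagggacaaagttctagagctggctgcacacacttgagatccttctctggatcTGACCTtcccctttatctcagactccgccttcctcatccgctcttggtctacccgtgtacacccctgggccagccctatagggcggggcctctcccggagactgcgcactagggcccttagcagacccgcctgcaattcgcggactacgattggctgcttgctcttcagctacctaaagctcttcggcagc
The Cyp2c65 window held the HNF4 word on the gene's strand and the antioxidant response element on the opposite strand. The Ugt2b5 window held AGGTCA on the gene's strand, the Gstk1 window held it on the opposite strand, and the Cyp2c55 window held none of the 4 words. Of the 14 members higher in hGAS than in GasKO, 13 had a window. GCGTG was in 4 of these (Cyp4f14, Cyp4f16, Mgst3 and Sult1d1), beside 32.4% of all 32851 promoter windows. TGACNNNGC was in 3 (Cyp2c65, Cyp4f14 and Mgst1), beside 12.4%, AGGTCA in 2 (Gstk1 and Ugt2b5), beside 16.3%, and CAAAGTCCA in Cyp2c65 alone, beside 0.475%. A gene was counted when any of its windows held the word, while the shares are per window. Cyp4f14 had 4 windows and Mgst1 had 2, which gave them more chances of a match. All these matches are descriptions of letters, and binding of a factor was not measured.

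Among the P450 enzymes of families 1 to 3, which hold most of the enzymes that act on drugs and other foreign compounds, 16 of 43 members were tested. Between hGAS and GasKO, 3 of these were higher and 1 was lower, beside 8.05% and 8.51% of all genes tested. Cyp2c65 and Cyp2c55 belong to the Cyp2c subfamily, whose members are known to oxidise drugs and arachidonic acid. Cyp2c65 read 9.14, 9.20 and 6.69 in WT, 8.29, 8.35 and 7.74 in GasKO, and 10.62, 11.29 and 10.26 in hGAS. All 3 hGAS arrays stood above the other 6, and WT replicate 3 was the lowest of all. The hGAS mean exceeded the GasKO mean by 2.59 on the log2 scale (SE 0.59, 6.04-fold, adjusted p = 0.0154). Against WT the difference was 2.38 (95% interval 1.06 to 3.70) and was not called (adjusted p = 0.0932). Without WT replicate 3 it was 1.55 (adjusted p = 0.0552), and the difference of GasKO from WT, -0.22 over all arrays (adjusted p = 0.861), was then -1.04 and called (adjusted p = 0.0476). The call between hGAS and GasKO was lost without GasKO replicate 3 or without hGAS replicate 2, at 2.40 and 2.31 (adjusted p = 0.0617 and 0.0543), and with a robust prior.

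Cyp2c55 read 13.13, 13.12 and 13.11 in WT, 12.54, 12.82 and 12.28 in GasKO, and 13.09, 13.46 and 13.28 in hGAS. The 3 GasKO arrays were below the other 6, while WT and hGAS overlapped. Cyp2c55 was lower in GasKO than in WT by 1.49-fold (log2 -0.57, SE 0.13, adjusted p = 0.0171) and higher in hGAS than in GasKO by 1.66-fold (log2 0.73, SE 0.13, adjusted p = 0.00412). Leaving out WT replicate 1, WT replicate 2 or GasKO replicate 1 ended the first of these calls, at -0.57 in each case and an adjusted p of up to 0.0618. In the RefSeq gene order Cyp2c65 is the direct neighbour of Cyp2c55. Cyp2c68, of the same cluster, gave -0.37 for hGAS against GasKO and was not called (adjusted p = 0.0842), but was called with the replicate number as a block (adjusted p = 0.0403). The other members of the cluster measured on the array (Cyp2c29, Cyp2c37, Cyp2c38, Cyp2c39, Cyp2c50, Cyp2c54 and Cyp2c70) read under 4 on every array and were not tested.

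The Cyp2d genes, mouse relatives of the human drug-metabolising enzyme CYP2D6, also form a cluster, and its members differed in direction. Cyp2d26 read 7.10, 7.15 and 6.98 in WT, 6.78, 6.54 and 6.77 in GasKO, and 7.85, 7.95 and 7.36 in hGAS. The 3 genotypes formed separate ranges, with hGAS highest and GasKO lowest. The difference between hGAS and GasKO was 1.03 (SE 0.14, 2.04-fold, adjusted p = 0.00124). Against WT, hGAS differed by 0.65 (adjusted p = 0.0738) and GasKO by -0.38 (adjusted p = 0.135), neither of which was called. Cyp2d9 read 8.0, 7.73 and 7.89 in WT, 8.19, 8.21 and 8.03 in GasKO, and 7.62, 7.75 and 7.85 in hGAS, so hGAS and GasKO were separate, and the WT arrays overlapped with those of hGAS. It was lower in hGAS than in GasKO by 1.32-fold (log2 -0.40, SE 0.09, adjusted p = 0.0146), and this call was lost without GasKO replicate 1 (-0.38, adjusted p = 0.0573) or hGAS replicate 1 (-0.34, adjusted p = 0.0555). The probe set of Cyp2d9, like those of Cyp2c65 and Mgst1, is of a design that can bind more than 1 transcript, and none of these 3 genes had a tested probe set designed for 1 transcript. The other Cyp2d genes shown in the cluster were not called, with values of 0.06 for Cyp2d22, -0.15 for Cyp2d10, -0.26 for Cyp2d12 and -0.27 for Cyp2d34. With the replicate number as a block Cyp2d34 was called (adjusted p = 0.0348). Cyp2d13, a tested member not among the genes shown in the cluster, gave 0.34 for hGAS against GasKO (adjusted p = 0.342). For GasKO against WT it gave -0.67 (adjusted p = 0.0913), and its second probe set gave -0.46 (adjusted p = 0.103 among all probe sets). None of these was called.

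Cyp2s1 and Cyp3a13 were called for GasKO against WT and in no other pairwise comparison, and whether the comparisons differ was not tested. Cyp2s1, a P450 of epithelial surfaces that is known as a target of the aryl hydrocarbon receptor, read 9.75, 9.70 and 9.67 in WT, 9.31, 9.32 and 9.29 in GasKO, and 9.37, 9.66 and 9.56 in hGAS. GasKO lay below both other groups, by 1.32-fold from WT (log2 -0.40, SE 0.07, adjusted p = 0.00528), and the value for hGAS against GasKO, 0.22, was not called (adjusted p = 0.0566). Cyp3a13, a member of the subfamily that handles many drugs and steroids, read 10.09, 10.19 and 9.97 in WT, 10.64, 10.59 and 10.65 in GasKO, and 10.41, 10.63 and 10.19 in hGAS. Its GasKO arrays were above all WT arrays, by 1.46-fold (log2 0.54, SE 0.10, adjusted p = 0.00682), and hGAS overlapped with GasKO.

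Cyp2e1, which oxidises ethanol and other small molecules, varied widely among arrays of the same genotype. It read 7.80, 7.39 and 4.36 in WT, 7.46, 8.19 and 7.52 in GasKO, and 5.59, 7.37 and 4.03 in hGAS. The low arrays were WT replicate 3 and hGAS replicates 1 and 3, and the difference between hGAS and GasKO was -2.07 with a 95% interval of -4.21 to 0.08 (adjusted p = 0.175, not called). All hGAS arrays read below all GasKO arrays, so any pairing of them would put hGAS lower in each pair. With the replicate number of the sample titles as a block, the same difference was called (adjusted p = 0.0491). No label says that arrays of the same number share anything. Cyp2f2, a P450 of airway epithelium, gave -0.43 in this comparison and was likewise called only with the block (adjusted p = 0.0366). Of 6 adipocyte markers, 3 were tested (Adipoq, Fabp4 and Cidec) and none was called. Their mean relative level was -1.56 in WT replicate 3, -0.62 in hGAS replicate 1 and -0.77 in hGAS replicate 3, and between -0.17 and 1.37 on the other 6 arrays, while Lep read under 2.2 throughout. The part of these markers in the Cyp2e1 values was not tested.

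Family 4 enzymes hydroxylate fatty acids and eicosanoids, and 6 of 13 members were tested. Between hGAS and GasKO 3 of them were higher and none was lower, beside 8.05% and 8.51% of all genes tested. Cyp4b1 read 4.61, 4.61 and 4.04 in WT, 4.42, 4.63 and 4.30 in GasKO, and 5.48, 6.59 and 5.08 in hGAS. The WT and GasKO arrays overlapped close to the level of 4 used as filter, and the hGAS arrays stood above them by 1.26 against GasKO (SE 0.33, 2.40-fold, adjusted p = 0.03). Without hGAS replicate 2 that difference was 0.83, and the call was lost when GasKO replicate 1, 2 or 3 or hGAS replicate 1 was left out, with an adjusted p of up to 0.097. Cyp4f14, which inactivates leukotriene B4, read 8.48, 8.63 and 7.88 in WT, 8.39, 8.31 and 8.29 in GasKO, and 8.97, 9.15 and 8.72 in hGAS. Its hGAS arrays were the 3 highest, by 1.53-fold over GasKO (log2 0.61, SE 0.18, adjusted p = 0.043). This call held only without WT replicate 2 or 3 or hGAS replicate 3 among the fits that left out 1 array, whose values ran from 0.51 to 0.73 with an adjusted p of up to 0.124. Cyp4f16 differed by 0.38 in the same direction (SE 0.10, adjusted p = 0.0246), and its call was lost without GasKO replicate 2 or 3 or hGAS replicate 1 or 3 (0.29 to 0.40, adjusted p up to 0.0768). Its neighbour Cyp4f13 gave 0.09, and Cyp4v3 and Cyp4f18 gave -0.28 and -0.52, none of the 3 called.

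Of the 17 members in the remaining P450 families, which mostly act on sterols, retinoids and vitamin D, 5 were tested and 1 was called. That call was for hGAS against GasKO, where 16.6% of all genes tested were called. Cyp27a1, the mitochondrial sterol 27-hydroxylase, read 7.43, 7.69 and 7.88 in WT, 8.01, 7.73 and 8.22 in GasKO, and 7.35, 7.64 and 7.43 in hGAS. It was lower in hGAS than in GasKO (log2 -0.51, SE 0.15, 1.43-fold, adjusted p = 0.0424), with WT across both ranges. The call ended when WT replicate 2, GasKO replicate 1 or 3, or hGAS replicate 1 or 3 was left out (-0.51 to -0.39, adjusted p up to 0.143). Cyp51, the lanosterol demethylase of cholesterol synthesis, averaged 10.37 in WT, 10.04 in GasKO and 10.34 in hGAS, and Cyp7b1, an oxysterol hydroxylase, averaged 5.25, 4.74 and 5.33. Cyp39a1 averaged 7.92, 8.07 and 7.92, and Cyp20a1, whose substrate is unknown, averaged 9.37, 9.35 and 9.34. None of these 4 was called in the fit of 1 probe set per gene. Cyp7b1 gave 0.59 for hGAS against GasKO, which was called with the replicate number as a block (adjusted p = 0.04). The second tested probe set of Cyp51 was lower in GasKO than in WT (log2 -0.54, 1.46-fold, adjusted p = 0.0397 among all probe sets).

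UDP-glucuronosyltransferases attach glucuronic acid to bilirubin, steroids, bile acids and drugs. Of 8 members with a probe set of their own, 3 were tested. Ugt2b5 read 5.87, 5.89 and 3.38 in WT, 5.33, 5.89 and 4.86 in GasKO, and 8.04, 8.60 and 7.30 in hGAS. Its pattern over arrays resembled that of Cyp2c65, with the 3 hGAS arrays highest and WT replicate 3 lowest. The difference between hGAS and GasKO was 2.62 (SE 0.63, 6.15-fold, adjusted p = 0.0203). Against WT it was 2.93 (95% interval 1.52 to 4.35, adjusted p = 0.0669, not called), and 2.10 without WT replicate 3 (adjusted p = 0.0548). The call against GasKO was lost without GasKO replicate 1 or 3 or without hGAS replicate 1 or 2, at 2.31 to 2.60 with an adjusted p of up to 0.0788, and with a robust prior. Ugt2b35 read 8.90, 8.38 and 8.64 in WT, 8.90, 8.95 and 8.76 in GasKO, and 8.39, 8.41 and 8.44 in hGAS. The hGAS arrays were below the GasKO arrays by 1.37-fold (log2 -0.46, SE 0.12, adjusted p = 0.0254). This call was lost without GasKO replicate 1 or 2 or any 1 of the hGAS arrays (-0.47 to -0.42, adjusted p up to 0.0821). Ugt2b34 averaged 11.69 ± 0.04 in WT, 11.67 ± 0.03 in GasKO and 11.71 ± 0.04 in hGAS, and its interval for hGAS against GasKO was -0.04 to 0.13. These neighbouring genes of 1 cluster therefore gave 2.62, -0.46 and 0.04 for the same contrast.

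The Ugt1a genes, which include the bilirubin-conjugating enzyme Ugt1a1, share their last exons, and the array read them through 3 probe sets that are each annotated to 8 Ugt1a genes. Such probe sets fell outside the rule of 1 gene per probe set and were named after their values were seen. They were fitted with all 23136 probe sets tested, of which 11.3% were called for GasKO against WT, 0.761% for hGAS against WT and 14.9% for hGAS against GasKO. The 3 probe sets overlap in the transcripts they read and are not independent. The first read 11.63, 11.52 and 11.43 in WT, 11.04, 11.25 and 11.08 in GasKO, and 11.74, 12.13 and 11.80 in hGAS. All 3 probe sets put GasKO below WT and hGAS above WT, with no overlap of arrays. GasKO differed from WT by -0.41, -0.28 and -0.42 (adjusted p = 0.034, 0.0326 and 0.0337), and hGAS from GasKO by 0.77, 0.53 and 0.82 (adjusted p = 0.00099, 0.000879 and 0.000895). The differences of hGAS from WT, 0.36, 0.25 and 0.39, were not called (adjusted p = 0.153, 0.144 and 0.144). Which of the Ugt1a genes carried these differences cannot be told from these probe sets.

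**Figure D3:**
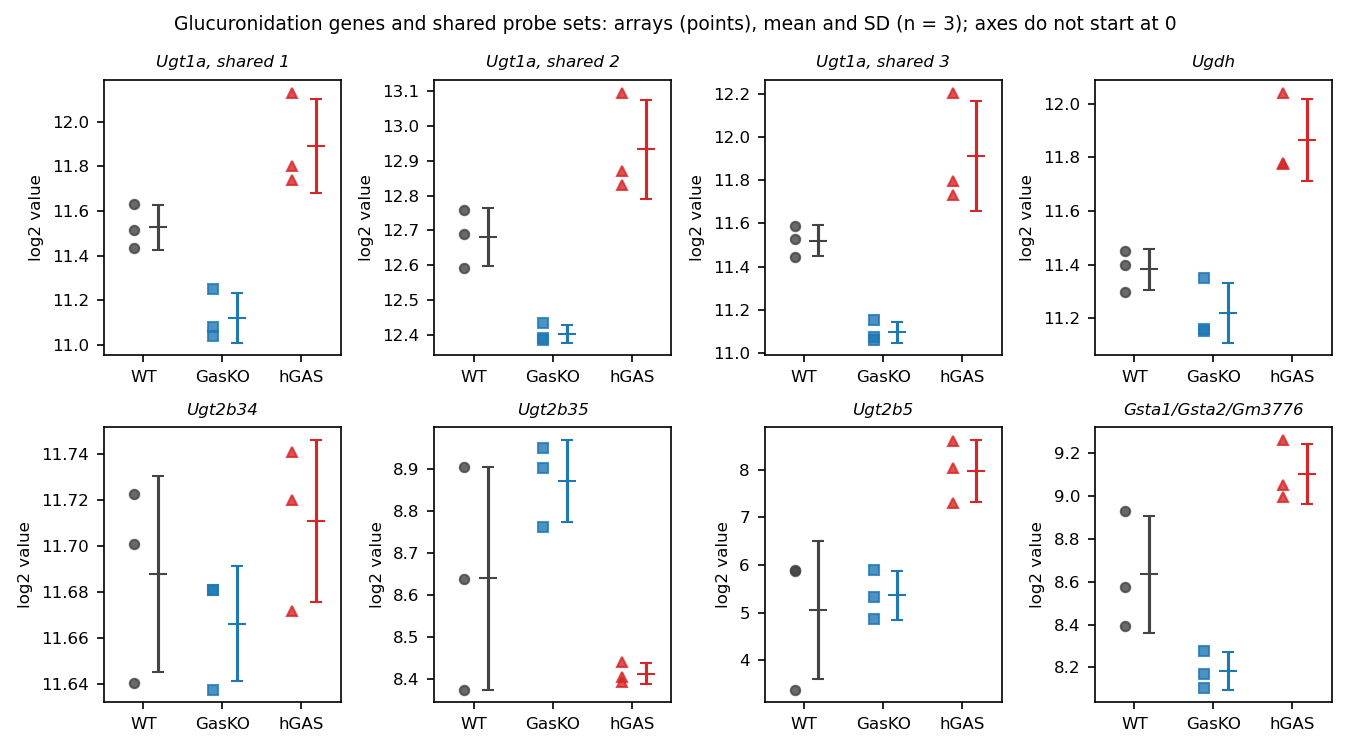
Log2 values by array, in separate panels, for the 3 shared Ugt1a probe sets, Ugdh, Ugt2b34, Ugt2b35, Ugt2b5 and the probe set shared by Gsta1, Gsta2 and Gm3776. Points are arrays, and bars give the mean and SD of 3 arrays on axes that do not start at 0. The Ugt1a panels step from GasKO through WT to hGAS, and the group means of Ugt2b34 lie between 11.67 and 11.71.

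Sulfotransferases transfer sulfate to phenols, catecholamines, steroids and thyroid hormones, and 5 of 13 members were tested. Sult1d1, which acts on catecholamines, read 11.59, 11.59 and 11.52 in WT, 11.46, 11.50 and 11.40 in GasKO, and 11.88, 12.08 and 11.74 in hGAS. The hGAS arrays were the 3 highest and exceeded GasKO by 0.45 (SE 0.08, adjusted p = 0.00345), while the 0.34 over WT was not called (adjusted p = 0.0746). Sult1c2 read 8.39, 8.52 and 8.50 in WT, 8.37, 8.30 and 7.99 in GasKO, and 8.76, 8.86 and 8.53 in hGAS. It was higher in hGAS than in GasKO by 1.41-fold (log2 0.50, SE 0.11, adjusted p = 0.0156), a call lost without hGAS replicate 1 (0.47, adjusted p = 0.057) or 2 (0.42, adjusted p = 0.0528). Sult1b1, in the same gene cluster as Sult1d1, differed by 0.00 (95% interval -0.11 to 0.11), and Sult1a1, the main phenol sulfotransferase, by -0.03 (-0.15 to 0.09). Sult2b1, which sulfates cholesterol and related sterols, averaged 7.94 ± 0.08 in WT, 7.86 ± 0.09 in GasKO and 7.64 ± 0.08 in hGAS. It passed the F test for any difference among genotypes (adjusted p = 0.0487) and none of the pairwise comparisons, while its difference of -0.22 between hGAS and GasKO was called with the replicate number as a block (adjusted p = 0.0372).

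The soluble glutathione transferases, which couple glutathione to reactive electrophiles, had 16 of 19 members tested. Gsta4, the transferase that removes the lipid peroxidation product 4-hydroxynonenal, read 8.24, 8.62 and 8.45 in WT, 8.15, 8.43 and 8.39 in GasKO, and 8.98, 9.22 and 9.09 in hGAS. The hGAS arrays were the 3 highest, and WT and GasKO overlapped. Gsta4 was higher in hGAS than in GasKO by 1.71-fold (log2 0.77, SE 0.11, adjusted p = 0.00144) and than in WT by 1.58-fold (log2 0.66, SE 0.11, adjusted p = 0.0287). The call against WT ended when WT replicate 1 or 3, GasKO replicate 3 or any 1 of the hGAS arrays was left out (0.56 to 0.72, adjusted p up to 0.0938). Gstk1, the transferase of mitochondria and peroxisomes, read 9.69, 9.69 and 9.55 in WT, 9.56, 9.65 and 9.57 in GasKO, and 10.06, 10.18 and 10.09 in hGAS. It too was high in hGAS alone, by 0.52 over GasKO (SE 0.06, 1.43-fold, adjusted p = 0.000323) and by 0.47 over WT (SE 0.06, 1.38-fold, adjusted p = 0.00949). The call against WT was lost when only those 6 arrays were fitted (adjusted p = 0.0551).

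Gsto1 and Gstt2 showed GasKO apart from both other genotypes. Gsto1, an omega-class enzyme with thioltransferase activity, read 12.58, 12.54 and 12.49 in WT, 11.99, 12.03 and 11.96 in GasKO, and 12.57, 12.74 and 12.40 in hGAS. The GasKO arrays were the 3 lowest, by 1.45-fold from WT (log2 -0.54, SE 0.07, adjusted p = 0.00125) and by 1.49-fold from hGAS (log2 0.58 for hGAS minus GasKO, SE 0.07, adjusted p = 0.00062). Gstt2, of the theta class, read 9.09, 8.99 and 9.08 in WT, 9.44, 9.37 and 9.45 in GasKO, and 9.14, 8.92 and 9.12 in hGAS. Here the GasKO arrays were the 3 highest, by 1.29-fold over WT (log2 0.37, SE 0.07, adjusted p = 0.00655), and hGAS minus GasKO was -0.36 (SE 0.07, adjusted p = 0.00598). Gstt1 and Gstt3, its neighbours, gave -0.16 and -0.20 for hGAS against GasKO and were not called. The Gstm cluster of 7 tested genes, the mu class, gave values between -0.19 and 0.08 in that comparison, none of them called. Gstp1, the pi-class enzyme, averaged 13.41 ± 0.05 in WT, 13.44 ± 0.07 in GasKO and 13.48 ± 0.09 in hGAS, with an interval of -0.09 to 0.16 for hGAS against GasKO. A probe set annotated to Gsta1, Gsta2 and Gm3776, also named after its values were seen, read 8.58, 8.93 and 8.39 in WT, 8.17, 8.28 and 8.10 in GasKO, and 9.05, 9.26 and 9.0 in hGAS. It was higher in hGAS than in GasKO by 1.89-fold (log2 0.92, adjusted p = 0.00131 among all probe sets), and its values for GasKO against WT, -0.45 (adjusted p = 0.0545), and hGAS against WT, 0.47 (adjusted p = 0.144), were not called.

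All 3 microsomal glutathione transferases, membrane enzymes that also act in peroxide reduction and leukotriene synthesis, were tested, and each was called in at least 1 comparison with small differences. The share of all genes called in at least 1 comparison was not computed. Mgst2 read 11.43, 11.30 and 11.26 in WT, 11.61, 11.54 and 11.50 in GasKO, and 11.65, 11.61 and 11.68 in hGAS. WT was the low group, by 0.22 from GasKO (SE 0.05, adjusted p = 0.0226) and by 0.31 from hGAS (SE 0.05, adjusted p = 0.0263). Mgst3 read 12.51, 12.56 and 12.70 in WT, 12.36, 12.40 and 12.36 in GasKO, and 12.67, 12.51 and 12.66 in hGAS. GasKO was the low group, at -0.22 from WT (SE 0.06, adjusted p = 0.0401) and with hGAS 0.24 above it (SE 0.06, adjusted p = 0.0234). Mgst1 was 0.17 higher in hGAS than in GasKO (SE 0.04, adjusted p = 0.0241). When the mean of a gene's probe sets was used in place of the highest one, Mgst1 gave 0.08, Mgst3 0.12 (-0.11 for GasKO against WT) and Cyp27a1 -0.26, and these calls were lost. The second probe set of each of these genes read near background, with WT means of 2.24, 2.29 and 2.62. Averaging with such a flat probe set shrinks a difference by construction, so these losses do not test the calls. In the 9 fits that left out 1 array, Mgst2 kept its call in 5 for GasKO against WT (lost without WT replicate 2 or 3 or GasKO replicate 1 or 2, 0.19 to 0.22) and in 2 for hGAS against WT (kept without WT replicate 1 or GasKO replicate 1, otherwise 0.28 to 0.33). Mgst3 kept its call for GasKO against WT without WT replicate 1 or hGAS replicate 2 and lost it in the others (-0.23 to -0.17), and lost it for hGAS against GasKO without GasKO replicate 1 or 3 or hGAS replicate 1 or 3 (0.21 to 0.23). Mgst1 lost its call without GasKO replicate 1 or 3 or hGAS replicate 1 (0.14 to 0.18).

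Of the 54 tested members, 33 were called in no pairwise comparison, a count that was not made over all genes tested. Over the members not called in a given comparison, the median 95% interval extended 0.24 to each side for GasKO against WT (47 members), 0.23 for hGAS against WT (51) and 0.22 for hGAS against GasKO (36). The 62 members not tested read between 1.38 and 4.07. They included Cyp1a1 (2.12 to 2.27) and Cyp1b1 (2.69 to 2.76), classical targets of the aryl hydrocarbon receptor, and Cyp2b10 (2.47 to 2.51) and Cyp3a11 (1.38 to 1.40), classical targets of CAR and PXR. The vitamin D hydroxylases Cyp24a1 (2.38 to 2.45) and Cyp27b1 (2.11 to 2.15), the retinoic acid hydroxylases Cyp26a1 (1.99 to 2.03) and Cyp26b1 (2.43 to 3.20), the bile acid enzymes Cyp7a1 (2.21 to 2.25) and Cyp8b1 (2.08 to 2.12) and the estrogen sulfotransferase Sult1e1 (2.59 to 2.65) were below 4 on every array too. Such values bear on the probe sets of this array and do not show that a transcript was absent.

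Genes that supply, regulate or complement these enzymes were counted in 4 lists. Over all genes tested, 12.1% were called for GasKO against WT, 1.16% for hGAS against WT and 16.6% for hGAS against GasKO. Of 18 genes for cofactor supply, 15 were tested, and none was called for GasKO against WT, 1 higher for hGAS against WT and 1 higher for hGAS against GasKO. That gene was Ugdh, which makes the UDP-glucuronic acid used by all glucuronosyltransferases. Ugdh read 11.45, 11.30 and 11.40 in WT, 11.15, 11.35 and 11.16 in GasKO, and 11.77, 12.04 and 11.78 in hGAS, so hGAS stood above the other arrays, by 0.64 from GasKO (adjusted p = 0.000741) and by 0.48 from WT (adjusted p = 0.0298). Of 8 efflux transporters, 6 were tested, and 2 were lower in GasKO than in WT, while 3 were higher in hGAS than in GasKO. Abcb1a, the drug pump P-glycoprotein, gave -0.59 and 0.31 (adjusted p = 0.00169 and 0.0344), Abcc3 gave -0.31 and 0.38 (adjusted p = 0.0441 and 0.0146), and Abcg2 was 0.44 higher in hGAS than in GasKO (adjusted p = 0.00612). For Abcb1a the hGAS and GasKO arrays overlapped.

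Of 20 regulators, 16 were tested, with 1 higher in GasKO than in WT, none called for hGAS against WT, and 3 higher and 1 lower in hGAS than in GasKO. Ahr read 8.60, 8.41 and 8.61 in WT, 9.11, 9.06 and 9.20 in GasKO, and 8.60, 8.32 and 8.46 in hGAS. GasKO was thus the high group, by 0.58 over WT (adjusted p = 0.00198), and hGAS minus GasKO was -0.66 (adjusted p = 0.000737). The 3 regulators higher in hGAS than in GasKO were the bile acid receptor Nr1h4 by 0.87 (adjusted p = 0.00765), the fatty acid receptor Ppara by 1.09 (adjusted p = 0.00509) and Nfe2l2 by 0.18 (adjusted p = 0.0314). Nr1i2 and Hnf4a were tested and not called in any comparison, and Nr1i3 (2.16 to 2.48) and the receptor repressor Ahrr (2.87 to 3.28) read near background.

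Of 25 other detoxifying enzymes, 21 were tested. GasKO against WT gave 2 higher and 1 lower, hGAS against WT 1 higher, and hGAS against GasKO 4 higher and 6 lower. Nqo1, the quinone reductase, read 7.01, 6.96 and 7.19 in WT, 6.63, 6.81 and 6.53 in GasKO, and 7.40, 7.29 and 7.25 in hGAS, in 3 separate ranges. It was lower in GasKO than in WT by 0.40 (log2 -0.40, adjusted p = 0.0253) and 0.65 higher in hGAS than in GasKO (adjusted p = 0.00155). The retinal dehydrogenase Aldh1a1 was higher in hGAS, by 0.94 than in GasKO (adjusted p = 0.00283) and by 1.34 than in WT (adjusted p = 0.0052). Akr1b8, an aldo-keto reductase, and Ephx2, the soluble epoxide hydrolase, were higher in hGAS than in GasKO by 0.47 and 0.45 (adjusted p = 0.00877 and 0.00907). In the opposite direction, Tpmt, the thiopurine methyltransferase, was 1.46 higher in GasKO than in WT (adjusted p = 0.000126), and hGAS minus GasKO was -1.31 (adjusted p = 0.000201). The aldehyde oxidase Aox1 gave 0.59 and -0.58 in the same comparisons (adjusted p = 0.0134 and 0.0113). Fmo1, Fmo2, Maob and Adh1 were lower in hGAS than in GasKO, at -0.86, -0.51, -0.29 and -0.32.

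**Figure D4:**
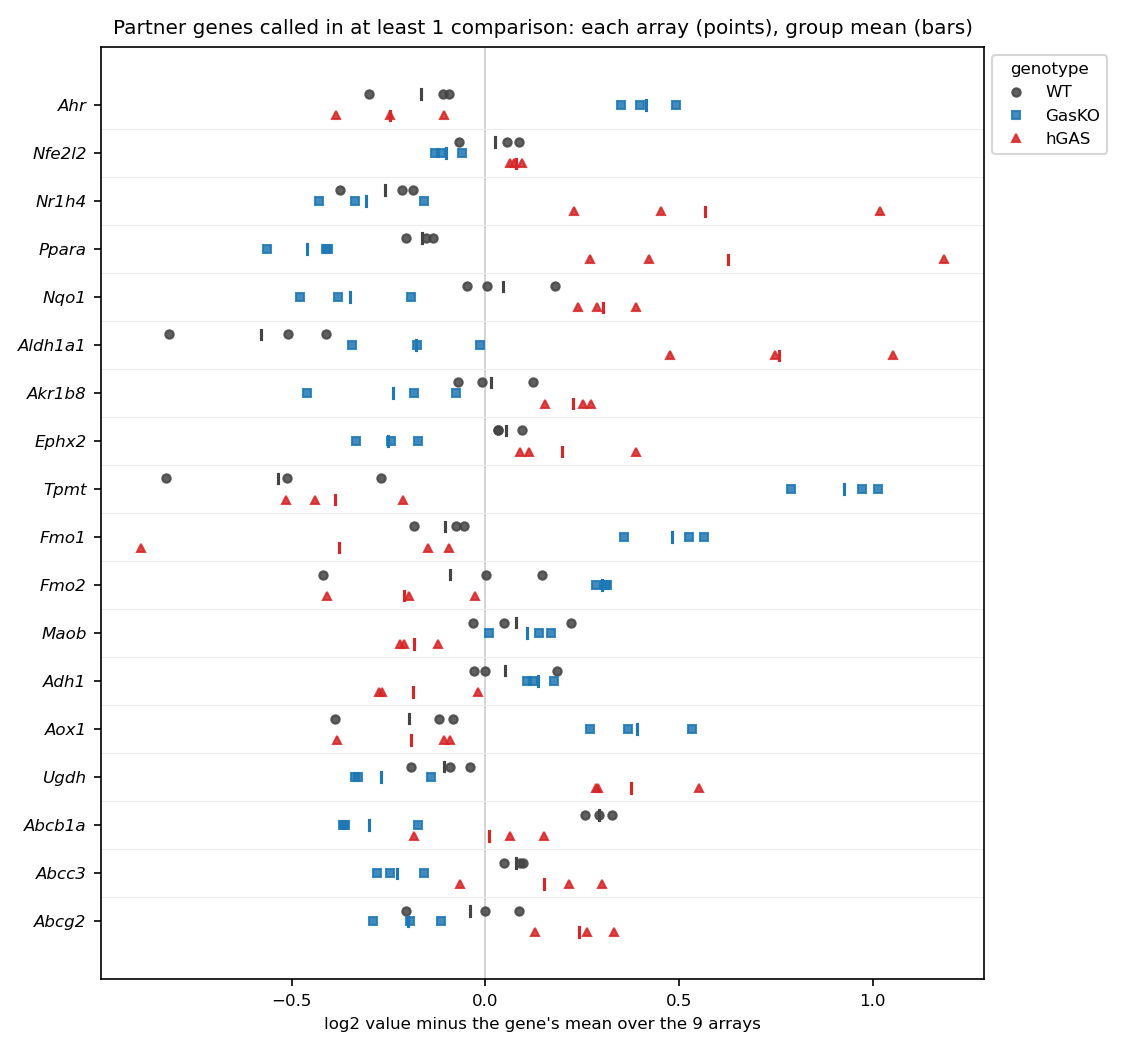
Log2 values by array for the 18 genes of cofactor supply, regulation, efflux and other detoxification that were called in at least 1 comparison, each centred on that gene's own average across arrays, with bars for group means. Tpmt and Ahr are high in GasKO, while Aldh1a1, Ppara, Nr1h4 and Ugdh are high in hGAS.

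Markers of position along the gut also differed between hGAS and GasKO. Over all genes tested, 16.6% were called there, 12.1% for GasKO against WT and 1.16% for hGAS against WT. The marker lists were drawn up with earlier results of these data known. Of 7 proximal colon markers, 5 were tested, and 3 (Hoxb6, Isx and Osr2) were higher in hGAS than in GasKO, by 2.60, 2.54 and 3.45 on the log2 scale. In hGAS against WT 3 proximal markers were higher, and none was called for GasKO against WT. The mean relative level of this list was -1.12 to -0.38 in WT, -0.66 to -0.34 in GasKO and 0.63 to 1.98 in hGAS. The highest array of the list was hGAS replicate 2, which was also the highest for 11 of the 14 members that were higher in hGAS than in GasKO. The other 3 were Cyp4f16, highest in hGAS replicate 3, Mgst1, highest in hGAS replicate 1, and Mgst3, highest in WT replicate 3. The lowest array of the list was WT replicate 3, which was also the lowest for 6 of the 14 (Cyp2c65, Ugt2b5, Cyp4b1, Cyp4f14, Gstk1 and Mgst1). The 14 were picked as higher in hGAS than in GasKO, so a top value on an hGAS array was largely set by that choice. No such count was made over all genes called higher, so 11 and 6 of 14 have no reference. Of 8 distal colon markers, 6 were tested, and 2 (Hoxa13 and Hoxb13) were lower in hGAS than in GasKO, with list levels of 0.37 to 0.55 in WT, -0.22 to -0.00 in GasKO and -0.38 to -0.21 in hGAS. Against WT, 3 distal markers were lower in GasKO and 2 were lower in hGAS. The median difference over the distal list was -0.34 and -0.60 there, beside -0.26 for hGAS against GasKO. Of 12 markers of small-intestinal enterocytes, 7 were tested, and Alpi, Fabp2 and Apob were higher in hGAS than in GasKO by 2.72, 1.5 and 0.52. That list ranged from -0.61 to 0.02 in WT, from -0.32 to -0.16 in GasKO and from 0.35 to 0.68 in hGAS, while its markers Lct, Apoa4, Apoc3 and Mttp read 2.33 to 2.92 on all arrays. The part of these markers in the member differences was not tested.

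**Figure D5:**
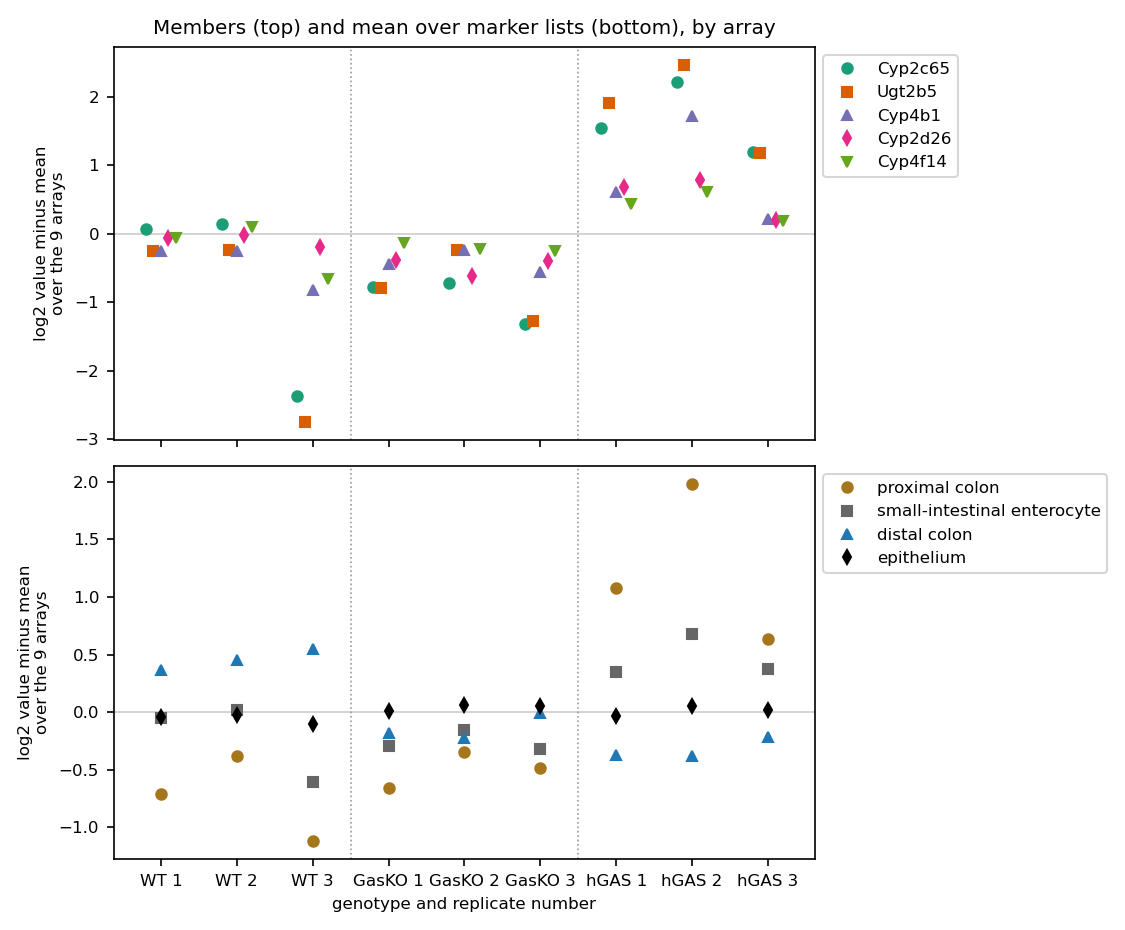
Top, Cyp2c65, Ugt2b5, Cyp4b1, Cyp2d26 and Cyp4f14 by array, each as the log2 value centred on its average across arrays. Bottom, the mean of the same quantity over markers of proximal colon, small-intestinal enterocytes, distal colon and epithelium. The proximal colon list spans -1.12 (WT replicate 3) to 1.98 (hGAS replicate 2), and the epithelial list spans -0.10 to 0.06.

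Markers of other cell types in the mucosa also differed between hGAS and GasKO. Over all genes tested, 8.05% were called higher and 8.51% lower there, and 12.1% were called for GasKO against WT. Of 7 B cell markers, 5 were tested and all 5 were lower in hGAS than in GasKO, with list levels of -0.03 to 0.60 in WT, 0.77 to 1.47 in GasKO and -1.55 to -0.96 in hGAS. Of 10 myeloid markers, 9 were tested and 6 were lower, with levels of -0.14 to -0.05, 0.20 to 0.38 and -0.32 to 0.04. Of 12 colonocyte markers, all were tested, with 3 higher and 1 lower in hGAS than in GasKO and list levels of -0.30 to 0.10 in WT, -0.11 to -0.03 in GasKO and 0.09 to 0.19 in hGAS. In the same comparison 2 of 11 goblet cell markers were higher and 3 lower (list levels -0.66 to 0.13, 0.02 to 0.06 and 0.07 to 0.17 in WT, GasKO and hGAS). Of 7 stem cell markers tested, 3 were higher and 1 lower (-0.06 to 0.09, -0.16 to -0.09 and 0.07 to 0.12), and of 7 fibroblast markers 3 were lower (-0.15 to 0.07, -0.03 to 0.11 and -0.01 to 0.04). Of 9 enteroendocrine markers tested, 2 were higher and 1 lower, and of 6 plasma cell markers 1 was higher. The plasma cell list as a whole went the other way, with a median of -0.40 for hGAS against GasKO. Its levels were -0.95 to -0.29 in WT, 0.30 to 0.54 in GasKO and -0.13 to 0.23 in hGAS. For GasKO against WT, 4 plasma cell markers were called higher and 1 lower. None of 5 endothelial, 7 smooth muscle and 3 tuft cell markers tested was called. Of 7 hepatocyte markers, 3 were tested and 1 was lower. The part of these cell types in the differences of the members, Tpmt, Aox1 and Ahr was not tested.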

How the data were processed

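Colonic mucosa of 3 genotypes was measured on 9 arrays of 45101 probe sets. The deposited values are log2 signals that the authors normalized with GCRMA, per the submitters' processing notes, with the version not given in the sources used here. Arrays give no read depth, and the number of arrays limits the precision. Of the probe sets, 34958 were annotated to 1 gene, 932 to several and 9211 to none or were controls. A gene was represented by its probe set of highest average signal. limma 3.58.1 (R 4.3.3; lmFit and eBayes with trend) fitted all 3 genotypes together on 11274 genes, with no covariate and Benjamini-Hochberg adjustment. The test was tried on simulated data. Members named with statistics were those called, with others named for their role or place in a family or cluster. Cyp2e1 and Cyp2f2 were chosen after their values were seen, as were the block results printed for Cyp2c68, Cyp2d34, Cyp7b1 and Sult2b1. The symbol rule for the members and the gene lists were both set with earlier results of these data known. Same-numbered arrays deviated together for GasKO and hGAS (correlations 0.117, 0.201 and 0.267), and not in every pair for WT with GasKO (0.15, -0.00557 and 0.145) or WT with hGAS (0.254, 0.0838 and 0.203). The numbers are those of the sample titles, but no label says what a number shares, so a pairing by number was seen only in the data. Alternatives changed the filter, probe set rule, scaling, prior, array weights, samples, block and threshold. Marker and pathway levels are means over a list of each gene's log2 value minus its mean over the arrays.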

Additional observations from a re-analysis of the deposited data

How the results depend on the processing

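No called member difference turned its direction in any of 20 alternatives, but most of these could not turn it. Changes of filter, prior or block leave the difference of the group means as it is. Because the groups of each called difference did not overlap, leaving out or weighting arrays cannot turn it either. Of the 28 called differences, 11 kept their call in all alternatives that were run: Cyp2s1, Cyp3a13, Gsto1 and Gstt2 for GasKO against WT, and Cyp2c55, Cyp2d26, Gsta4, Gstk1, Gsto1, Gstt2 and Sult1d1 for hGAS against GasKO. The other 17 lost it in at least 1, most often Mgst3 (GasKO against WT) and Mgst2 (hGAS against WT), each called in 10 of 20, and Cyp4f14, called in 11. The count for hGAS against WT, 3, was 1 with no filter on low values (0.319% of all genes). It was 0 when only the 6 arrays compared were fitted (0.239% of all genes). There 15 members had an unadjusted p under 0.05, a count that was not made over all genes and so has no reference. It was 9 with the replicate block (2.51% of all genes, against 1.16% without it) and 9 at an adjusted p under 0.1 (3.02% of all genes). The members gained there with the block were Cyp2c65, Cyp4b1, Cyp4f14, Sult1d1, Sult2b1 and Ugt2b5, but WT numbers did not pair in every case. At an adjusted p under 0.01 the counts were 4 for GasKO against WT (5.98% of all genes), 1 for hGAS against WT (0.186%), 7 for hGAS against GasKO (7.97%) and 8 for any genotype (7.49%). The replicate block gave 8 for GasKO against WT (13.8% of all genes; Cyp2d13 gained), 19 for any genotype (18.2%) and 24 for hGAS against GasKO (18.5%). These 24 held all 18 and added Cyp2c68, Cyp2d34, Cyp2e1, Cyp2f2, Cyp7b1 and Sult2b1. Leaving out 1 array at a time gave 4 to 8 for GasKO against WT (4 without WT replicate 2 or GasKO replicate 1), 1 to 3 for hGAS against WT (1 without WT replicate 3, GasKO replicate 3, hGAS replicate 1 or hGAS replicate 2), 9 to 19 for hGAS against GasKO and 10 to 18 for any genotype (10 without hGAS replicate 1). Over the same fits, the share of all genes called moved too. It was 7.88% to 12.2%, 0.231% to 0.922%, 10.8% to 17.7% and 9.74% to 15.5% in the same order. The cause of these moves was not tested. Scaling moved no array median by more than 0.0158. Members near background, which include 62 not tested, have no measured differences here.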

Other observations

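Of the 54 tested members, 19 had a further probe set annotated to the same gene. For Gsto1, the probe sets gave 0.56 and 0.58 for hGAS against GasKO, and for Sult1d1 they gave 0.36 and 0.45, all 4 of them called in the fit of all probe sets. For Cyp4f16 they gave 0.38 and 0.20, of which the first was called, and a further set shared with Cyp4f37 gave 0.42 (adjusted p = 0.0178). The latter also read lower in GasKO than in WT, at -0.39 (adjusted p = 0.03), where Cyp4f16 alone was not called. For Cyp7b1 the probe sets gave 0.59 and 0.03, and for Cyp2d22 they gave 0.06 and -0.40, none of them called. The cause of the spread within a gene was not tested.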
